A study of Mus musculus with 18 samples.

Results

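Hepatocellular carcinomas (HCC) in which the route from gut bacteria to Toll-like receptor 4 had been interrupted were compared with HCC in which that route was intact. The interrupted tumours were 5 from C3H/HeJ mice, whose Tlr4 carries the P712H change, and 3 from wild-type (WT) C3H/HeOuJ mice that drank antibiotics. The intact tumours were 7 from WT C3H/HeOuJ mice without antibiotics, so that 15 of the 18 arrays of the series entered the comparison. Membership was taken from the labels alone, and a gene was kept where its mutant minus WT and its antibiotic minus WT difference had the same sign. All mice were male. Every tumour, those of WT mice included, had been induced with diethylnitrosamine, a liver carcinogen, at 100 mg/kg in week 12. CCl4, which injures hepatocytes, followed at 0.5 ml/kg in 6 doses from week 13 to week 23, and tumours were taken at 54 weeks of age. The antibiotic mice drank ampicillin, neomycin and metronidazole at 1 g/l each and vancomycin at 500 mg/l from week 10 to week 54. The 3 remaining arrays were normal liver of WT C3H/HeOuJ mice aged 15 weeks. They shared the fit and so its estimate of the spread, and are otherwise given here for their levels only.

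The Tlr4 change is carried by a substrain, so in the mutant arm it cannot be told apart from any other difference between C3H/HeJ and C3H/HeOuJ. The antibiotic arm consists of 3 tumours. Whether each sample of a group is a separate animal is not given in the sources used here, and the p-values therefore measure the spread between samples. Neither bacteria nor lipopolysaccharide was measured on the arrays. All 15 tumours carried hepatocyte transcripts: Alb, Ttr and Apoa1, which encode secreted liver proteins, lay between log2 14.44 and 14.94 on every tumour array. Afp, an albumin-like serum protein of the fetus that marks HCC, lay between 6.63 and 14.37, its lowest value being that of antibiotic tumour 30. The tissue was bulk, so fewer cells of a type and less RNA per cell cannot be told apart.

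Lipopolysaccharide, a wall component of gram-negative bacteria, reaches the liver from the gut through the portal vein. In serum it is bound by Lbp, handed to Cd14 and presented to the complex of Tlr4 and Ly96. The adaptors downstream of the receptor activate NF-kappaB, which induces cytokines, chemokines and its own inhibitors. In liver the receptor is known from Kupffer cells, endothelial cells, stellate cells and hepatocytes, and mice of the C3H/HeJ strain respond poorly to lipopolysaccharide.

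Few genes separated interrupted from intact tumours, and they are given below by whether a difference between the arms passed as well. Of 9053 genes tested, 18 had a limma adjusted p under 0.05 in the pooled contrast and the same sign in both arms (0.199 percent of the genes tested), with 8 higher (0.0884 percent) and 10 lower (0.11 percent) in interrupted tumours. For 11 of the 18 no difference between mutant and antibiotic tumours passed the test. They were Fam193b, Spag7, Tbcd and Mrpl55, which rose, and Washc4, Ppm1h, Snx16, Ranbp9, Kdm5b, Malat1 and Pgap2, which fell, with log2 differences between 0.54 and 1.28 in size and limma adjusted p between 0.0115 and 0.0443. For the other 7 the mutant tumours differed from the antibiotic tumours as well, and most of the pooled difference lay in the mutant arm. A same sign alone was common: 6228 genes (68.8 percent) had it, both arms being set against the same 7 WT tumours, and 4800 genes (53 percent) had a positive pooled difference.

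The calls rest on the estimate of the spread, to which the normal liver arrays contributed. With the 15 tumours alone as 3 groups, Fam193b, Spag7, Tbcd, Mrpl55, Washc4, Ppm1h, Snx16, Malat1, Pgap2 and Fancl lost the call. Among the genes with no called difference between the arms, only Ranbp9 and Kdm5b kept it. When the 8 interrupted tumours were entered as 1 group with the 7 WT tumours and no other arrays, no gene passed in limma (smallest adjusted p 0.169), although 1436 genes had an unadjusted p under 0.05. Asking for a difference in each arm on its own, with the larger of the 2 limma p-values adjusted over all genes, also gave 0 genes (0 percent), where 407 (4.5 percent) had both unadjusted p-values under 0.05 and the same sign, 213 higher (2.35 percent) and 194 lower (2.14 percent). The 3' minus 5' difference of the pyruvate carboxylase control, a measure of RNA quality, was 6.69 ± 0.49 in interrupted and 5.74 ± 0.58 in WT tumours (log2, SD, n = 8 and 7; two-sided exact permutation p = 0.00559, adjusted p = 0.0168 over 3 controls). Its 5' probe set lay below log2 4 on all 8 interrupted arrays, between 3.11 and 3.79, and between 3.64 and 4.97 on WT arrays. Its 3' probe set averaged 10.22 in interrupted and 9.82 in WT tumours. The pyruvate carboxylase difference therefore also holds the level of the transcript and cannot be read as RNA quality alone. For Gapdh the difference was 0.56 in interrupted and 0.42 in WT tumours (exact permutation p = 0.195, adjusted p = 0.292), and for beta-actin 2.17 in interrupted and 2.14 in WT tumours (exact permutation p = 0.876). The part of RNA quality in the gene calls was not tested. WT tumours 17 and 19 stood apart on the first principal component of the 15 tumours (27.1% of the variance), and without them 9 genes were called, 8 of them among the 18. Among the genes with no called difference between the arms, only Tbcd and Pgap2 kept the call without those tumours. Antibiotic tumour 30 had the lowest score on that component, -34.5, and the highest on the second, 42.3 (16.3% of the variance).

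Tbcd and Mrpl55 were the called rises for which every interrupted tumour lay above every WT tumour. Tbcd, a cofactor that folds and assembles tubulin, read log2 7.16, 6.99, 7.20, 7.02 and 7.33 in mutant and 7.04, 6.96 and 7.34 in antibiotic tumours, against 5.98, 6.55 and 6.90 (lowest, median, highest) in WT tumours. The differences of the arms were close, 0.64 in mutant and 0.62 in antibiotic tumours on the log2 scale, and the pooled difference was 0.63 ± 0.12 (SE; limma adjusted p = 0.0443). Mrpl55, a protein of the large mitochondrial ribosomal subunit, read 5.02, 4.94, 5.02, 5.16 and 5.53 in mutant and 4.87, 5.27 and 5.28 in antibiotic tumours, against 4.14, 4.64 and 4.82 in WT tumours. Its log2 difference was 0.59 in each arm and 0.59 ± 0.12 pooled (SE; limma adjusted p = 0.0443). Both were close to the threshold, and each kept its call in 3 of the 15 fits that left out 1 tumour.

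Spag7 and Fam193b rose in the pooled contrast, with positive differences in both arms and slight overlap of the groups. Spag7 read log2 8.64, 8.70, 8.47, 8.28 and 7.94 in mutant and 8.42, 8.51 and 8.39 in antibiotic tumours, against 7.47, 7.74 and 8.10 in WT tumours, with mutant tumour 27 alone inside the WT range. The pooled log2 difference was 0.65 ± 0.12 (SE; limma adjusted p = 0.0366). Fam193b read 6.28, 5.89, 5.90, 6.15 and 6.71 in mutant and 6.49, 5.94 and 6.56 in antibiotic tumours, against 4.96, 5.29 and 6.0 in WT tumours. WT tumour 22, the highest, was the only WT tumour above any interrupted one, and the pooled log2 difference was 0.88 ± 0.16 (SE; limma adjusted p = 0.0366). Each gene kept its call in 5 of the 15 fits that left out 1 tumour. Neither arm passed by itself for Spag7, Fam193b, Tbcd or Mrpl55. Their limma adjusted p lay between 0.0759 and 0.0893 in the mutant arm and between 0.146 and 0.156 in the antibiotic arm.

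Washc4 and Ranbp9 were the called falls whose groups did not overlap. Washc4, a subunit of the WASH complex that builds actin on endosomes, read log2 7.94, 7.91, 7.94, 7.10 and 6.70 in mutant and 6.23, 7.19 and 6.31 in antibiotic tumours, against 7.97, 8.25 and 9.14 in WT tumours. It had the largest fall among the 18 genes, 1.28 ± 0.23 (log2, SE; limma adjusted p = 0.0312), with differences of -0.93 in mutant and -1.87 in antibiotic tumours, and kept its call in 9 of the 15 fits that left out 1 tumour. Its probe set may also match other transcripts. With such probe sets removed, the Washc4 probe set of highest mean among those left gave -0.50 and lost the call, although all 3 other kept probe sets had negative differences. Ranbp9, a scaffold protein of the CTLH ubiquitin ligase complex, read 8.58, 9.15, 8.91, 8.81 and 8.54 in mutant and 8.76, 8.74 and 8.18 in antibiotic tumours, against 9.23, 9.45 and 9.81 in WT tumours. Its pooled fall was 0.74 ± 0.12 (log2, SE; limma adjusted p = 0.0115), and the call was kept in all 15 fits that left out 1 tumour. Its other kept probe set, used when probe sets that may match several transcripts were removed, gave -0.62 and lost the call.

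In all, 22 genes had interrupted and WT tumours that did not overlap (0.243 percent of the genes tested), 9 higher (0.0994 percent) and 13 lower (0.144 percent), and 4 of them were called. The promoters of these 4 are printed because no other called gene separated every interrupted from every WT tumour. Each window runs from 250 bases before to 50 bases after a RefSeq start site on GRCm38.p6, written 5' to 3' on the gene's strand. For Tbcd and Mrpl55 that site is the outer start of the gene. The Washc4 and Ranbp9 windows lie wholly inside the span of the gene, so their start sites are not the outermost ones. Capitals mark matches, on either strand, to the TATA box TATAAA, the GC box GGGCGG, the ETS motif CCGGAAG, the E-box CACGTG, the AP-1 motif TGANTCA or the NF-kappaB consensus.
Tbcd, chr11:121451741-121452040, plus strand: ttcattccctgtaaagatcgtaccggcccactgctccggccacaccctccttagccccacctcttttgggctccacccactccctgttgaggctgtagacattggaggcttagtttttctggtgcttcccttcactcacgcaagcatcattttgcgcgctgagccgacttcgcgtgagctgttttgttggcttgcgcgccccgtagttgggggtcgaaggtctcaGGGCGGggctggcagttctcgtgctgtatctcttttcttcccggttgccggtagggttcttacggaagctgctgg
Mrpl55, chr11:59202236-59202535, plus strand: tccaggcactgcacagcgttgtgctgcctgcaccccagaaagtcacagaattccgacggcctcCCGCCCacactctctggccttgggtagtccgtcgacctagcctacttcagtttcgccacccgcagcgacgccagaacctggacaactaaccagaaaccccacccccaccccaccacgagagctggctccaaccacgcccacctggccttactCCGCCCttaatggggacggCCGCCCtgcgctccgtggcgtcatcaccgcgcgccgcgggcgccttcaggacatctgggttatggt
Washc4, chr10:83543691-83543990, plus strand: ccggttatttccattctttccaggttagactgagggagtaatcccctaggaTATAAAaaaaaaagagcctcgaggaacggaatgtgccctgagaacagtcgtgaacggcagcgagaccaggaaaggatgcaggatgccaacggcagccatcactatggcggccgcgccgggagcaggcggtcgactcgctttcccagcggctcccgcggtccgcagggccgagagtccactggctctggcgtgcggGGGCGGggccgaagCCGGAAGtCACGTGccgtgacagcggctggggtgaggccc
Ranbp9, chr13:43480924-43481223, minus strand: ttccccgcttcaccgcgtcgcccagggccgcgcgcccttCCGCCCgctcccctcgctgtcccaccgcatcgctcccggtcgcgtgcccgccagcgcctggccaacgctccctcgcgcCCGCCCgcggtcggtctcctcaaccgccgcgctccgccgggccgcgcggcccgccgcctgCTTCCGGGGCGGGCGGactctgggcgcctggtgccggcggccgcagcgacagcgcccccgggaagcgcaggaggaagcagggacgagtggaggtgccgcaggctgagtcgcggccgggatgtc

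All 4 windows held at least 1 match to the GC box GGGCGG or its complement, which 35.7% of 32851 mouse promoter windows of this length held. Matches to the ETS motif CCGGAAG lay in the Washc4 and Ranbp9 windows, against 8.86% of all windows. In the Ranbp9 window that match overlaps GC box matches. None of these 4 windows matched the NF-kappaB consensus, found in 8.46% of all windows. Among the 16 called genes with a RefSeq window, 3 had an NF-kappaB match, 4 a TATAAA match (13.6% of all windows), 11 a GC box match, 3 an ETS match, 1 a CACGTG match (7.15%) and 0 a TGANTCA match (7.81%). These are letter matches only, counted over all windows of a gene where it had several.

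A further 5 genes fell in the pooled contrast with negative differences in both arms. In each of them, as in Washc4 and Ranbp9, only 1 arm passed by itself. For Washc4 and Ranbp9 it was the antibiotic arm (limma adjusted p = 0.0312 and 0.0457), not the mutant arm (limma adjusted p = 0.148 and 0.0615). Kdm5b, a histone demethylase, read log2 7.14, 7.26, 7.24, 7.46 and 7.13 in mutant and 6.54, 7.20 and 6.79 in antibiotic tumours, against 7.43, 7.87 and 8.03 in WT tumours. It fell by 0.74 ± 0.12 (log2, SE; limma adjusted p = 0.0115), overlapping only through mutant tumour 26 and WT tumour 16, and kept its call in all 15 fits that left out 1 tumour. Malat1, an abundant nuclear long non-coding RNA, read 13.26, 13.29, 13.44, 12.63 and 12.96 in mutant and 12.22, 12.54 and 12.33 in antibiotic tumours, against 13.24, 13.64 and 13.88 in WT tumours. All 3 antibiotic tumours lay below every WT tumour, while 3 mutant tumours lay inside the WT range. The pooled fall was 0.72 ± 0.13 (log2, SE; limma adjusted p = 0.0312), and the 6 other kept Malat1 probe sets had negative differences too. The antibiotic difference passed by itself for Kdm5b (-0.99, limma adjusted p = 0.0312) and Malat1 (-1.19, limma adjusted p = 0.0178), while the mutant difference of -0.59 for Kdm5b (limma adjusted p = 0.0997) and of -0.43 for Malat1 (limma adjusted p = 0.204) did not. Malat1 kept its call in 9 of the 15 fits that left out 1 tumour.

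Ppm1h, a phosphatase of Rab proteins, read log2 4.84, 5.59, 4.74, 4.14 and 4.65 in mutant and 4.62, 4.07 and 3.30 in antibiotic tumours, against 5.19, 5.59 and 6.44 in WT tumours. Mutant tumour 24 alone reached the WT range, and the pooled fall was 1.2 ± 0.23 (log2, SE; limma adjusted p = 0.0387). Snx16, a sorting nexin of endosomes, read 6.59, 6.30, 6.09, 6.15 and 5.88 in mutant and 6.67, 6.93 and 6.92 in antibiotic tumours, against 6.72, 7.24 and 7.67 in WT tumours. Here the mutant tumours were the lower arm, all of them below the WT range, while WT tumour 18 lay below antibiotic tumours 29 and 30, and the pooled fall was 0.83 ± 0.16 (log2, SE; limma adjusted p = 0.0443). Pgap2, which takes part in maturing glycolipid anchors of surface proteins, read 8.57, 8.61, 8.62, 8.33 and 8.32 in mutant and 8.27, 8.04 and 7.78 in antibiotic tumours, against 8.54, 8.93 and 9.08 in WT tumours. Only WT tumour 17 lay within its interrupted range, and the pooled fall was 0.54 ± 0.10 (log2, SE; limma adjusted p = 0.0387). Without probe sets that may match several transcripts, Pgap2 gave -0.22 and lost the call. For Snx16 the mutant difference of -1.07 passed by itself (limma adjusted p = 0.014) and the antibiotic difference of -0.43 did not (limma adjusted p = 0.349). For Ppm1h and Pgap2 it was the antibiotic difference that passed, at -1.70 for Ppm1h (limma adjusted p = 0.0457) and -0.83 for Pgap2 (limma adjusted p = 0.0312), against mutant differences of -0.90 and -0.37 for the same genes. Snx16 kept its call in 4 of the 15 fits that left out 1 tumour, and Ppm1h and Pgap2 each in 6.

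**Figure D1:**
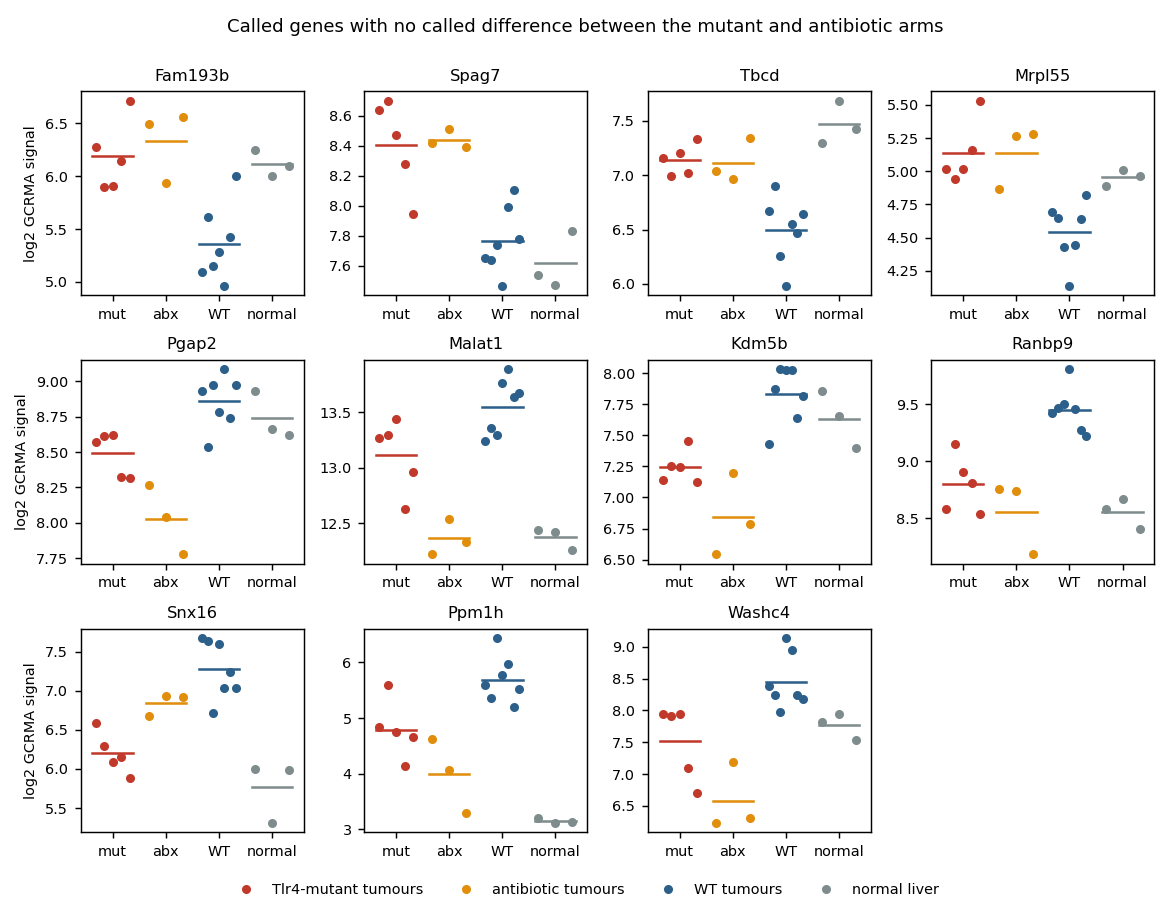
Each point is 1 array and each bar a group mean, with the log2 GCRMA signal on the vertical axis (a separate scale per gene) and Tlr4-mutant (n = 5), antibiotic (n = 3) and WT tumours (n = 7) and normal liver (n = 3) from left to right. Tbcd, Mrpl55, Ranbp9 and Washc4 show no overlap of interrupted and WT tumours, whereas for Malat1 3 of the 5 mutant tumours lie inside the WT range.

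That no difference between the arms passed for these 11 genes does not show that the arms were alike. The 95% interval of mutant minus antibiotic on the log2 scale included 0 for Fam193b (-0.63 to 0.35), Spag7 (-0.40 to 0.33), Tbcd (-0.35 to 0.40), Mrpl55 (-0.35 to 0.34) and Ranbp9 (-0.12 to 0.60). For Washc4 (0.24 to 1.63), Ppm1h (0.11 to 1.48), Malat1 (0.36 to 1.14), Pgap2 (0.15 to 0.77) and Kdm5b (0.04 to 0.76) the interval, taken for each gene by itself, lay above 0, antibiotic tumours being the lower. For Snx16 it lay below 0 (-1.13 to -0.15), mutant tumours being the lower. After adjustment over all genes the limma p of these 11 differences lay between 0.169 and 0.995. By comparison, 21 of the 9053 genes (0.232 percent) differed between mutant and antibiotic tumours.

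Normal liver gave a further reference point, without a test, since those arrays differ from the tumours in age and RNA quality. For 8 of the 11 genes the mean of the interrupted tumours lay nearer to normal liver than the mean of the WT tumours did. Ranbp9 averaged 8.71 in interrupted tumours, 9.45 in WT tumours and 8.55 in normal liver, and Fam193b averaged 6.24 in interrupted tumours, 5.36 in WT tumours and 6.11 in normal liver. Over all 18 called genes the number nearer to normal liver was 9, with Pdgfa as the only 1 of the 7 genes whose arms differed. The share over all genes tested was not counted, so these numbers have no background. Only distance was compared: Washc4 counted as nearer, averaging 7.17 in interrupted tumours, 8.44 in WT tumours and 7.77 in normal liver, which lay between them. Among the 11, Spag7, Kdm5b and Pgap2 were the exceptions. Spag7 averaged 8.42 in interrupted tumours, 7.77 in WT tumours and 7.62 in normal liver.

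The 7 remaining called genes had the same sign in both arms but were carried by the mutant tumours. Slc12a4, a potassium chloride cotransporter, read log2 4.97, 4.80, 6.41, 6.49 and 5.82 in mutant and 2.68, 2.30 and 2.91 in antibiotic tumours, against 2.09, 2.28 and 2.68 in WT tumours. Antibiotic and WT tumours were both below log2 4, so mutant tumours were at least 3.24-fold higher than either (limma adjusted p = 1.17e-06 against WT tumours). Pdgfa, the ligand of the platelet-derived growth factor receptor of fibroblasts and stellate cells, read 6.71, 6.77, 6.96, 7.09 and 7.07 in mutant and 8.40, 9.11 and 7.66 in antibiotic tumours, against 8.21, 8.77 and 9.04 in WT tumours. Its pooled fall was 1.23 ± 0.19 (log2, SE; limma adjusted p = 0.00844), made up of -1.78 in the mutant and -0.32 in the antibiotic arm, where the difference did not pass (limma adjusted p = 0.544).

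Cystm1, a small membrane protein, had a log2 difference of 2.27 in the mutant and 0.29 in the antibiotic arm, and Ppp1r21, an endosomal protein, 1.98 in the mutant and 0.02 in the antibiotic arm. Eif2s3y, the Y-linked subunit of initiation factor eIF2, had 0.89 in the mutant and 0.09 in the antibiotic arm. Among the falls, Fancl, the ubiquitin ligase of the Fanconi anaemia pathway, had -1.47 in the mutant and -0.13 in the antibiotic arm, and Vps41, a subunit of a complex that fuses vesicles with lysosomes, -0.87 in the mutant and -0.14 in the antibiotic arm. Without probe sets that may match several transcripts, Vps41 gave a pooled -0.34 and lost the call, although its 2 other kept probe sets had negative differences. In none of the 7 did the antibiotic difference pass by itself, and the limma adjusted p of mutant minus antibiotic lay between 1.05e-05 (Cystm1) and 0.0310 (Vps41). Among the mutant tumours 24 genes passed against WT tumours (0.265 percent), and among the antibiotic tumours 8 (0.0884 percent). A further 3 genes passed the pooled contrast with opposite signs in the arms and were left out by the rule. They were Nme7 (2.75 in mutant and -0.40 in antibiotic tumours, log2), Rbks, a ribokinase (at least 2.54-fold lower in mutant than in WT tumours, and a log2 difference of 0.54 in antibiotic tumours), and Copz2, a coatomer subunit (-2.64 in mutant and 0.22 in antibiotic tumours).

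**Figure D2:**
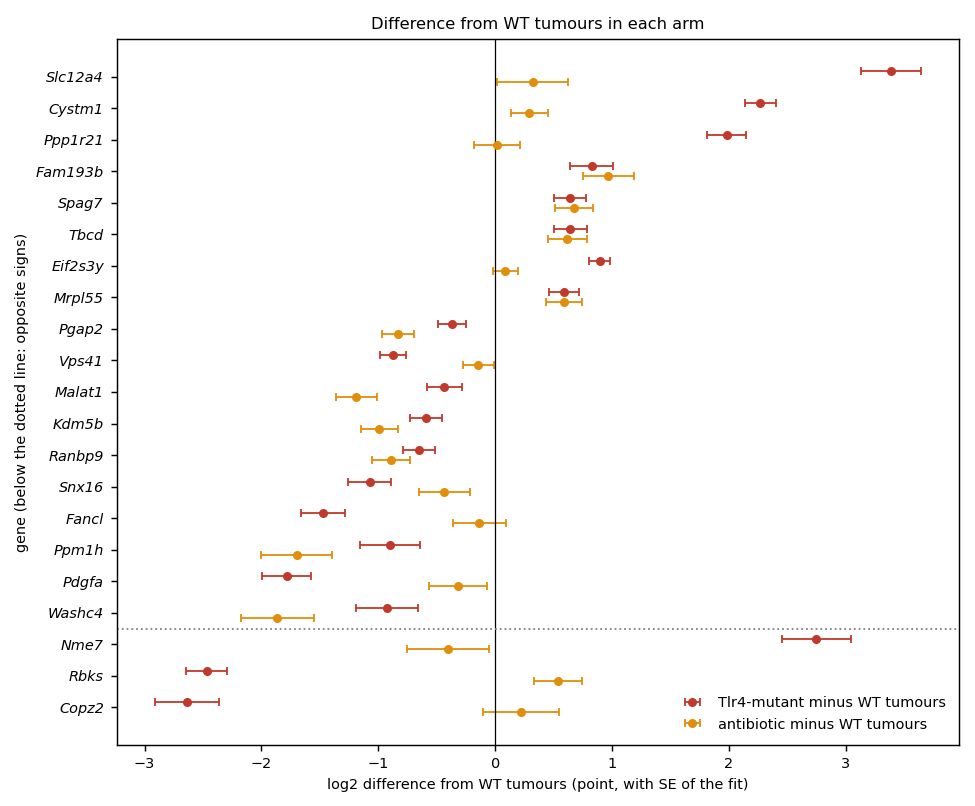
Points give the log2 difference from WT tumours for Tlr4-mutant (red) and antibiotic tumours (orange), bars the SE of the fit, for the 18 called genes and, below the dotted line, the 3 genes with opposite signs. Tbcd, Mrpl55 and Spag7 have nearly the same difference in both arms, while Ppp1r21 stands at 1.98 in mutant and 0.02 in antibiotic tumours, and the points of Slc12a4 and of Rbks in mutant tumours involve groups below log2 4 and are not sizes.

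The 18 genes whose groups did not overlap but which were not called are named after their values were seen. The 7 higher ones were Exosc5, Coq7, Mvb12a, Acsf3, Vac14, Mrpl37 and Churc1, and the 11 lower ones were Sectm1a, Dgkq, Zmynd8, Akirin1, Wdfy1, Cpsf2, Dmxl1, Dr1, Slain2, Ccdc59 and Mier3. Exosc5, a subunit of the RNA exosome, read log2 5.37, 5.06, 4.92, 5.11 and 5.80 in mutant and 5.01, 5.07 and 5.61 in antibiotic tumours, against 3.67, 4.25 and 4.92 in WT tumours, a pooled difference of 0.95 (limma adjusted p = 0.0580). Coq7, an enzyme of ubiquinone synthesis, had a log2 difference of 0.51 (limma adjusted p = 0.0619) and Mrpl37, of the mitochondrial ribosome, 0.52 (limma adjusted p = 0.134). The adjusted p of the 18 reached 0.169 (Ccdc59, -0.31). Lcorl, a transcription factor gene named by its rank in p, had a difference of 1.00 that also missed the threshold (limma adjusted p = 0.0580).

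The receptor side of the axis did not pass the test at the RNA level. Tlr4 lay below log2 4 on all 15 tumour arrays, at 3.22, 2.59, 2.52, 2.72 and 2.63 in mutant and 2.50, 3.16 and 2.58 in antibiotic tumours, against 2.63, 2.85 and 3.82 in WT tumours, and was not tested. The array therefore gives no check of the mutation, which changes the protein. Cd14 had a log2 difference of -0.22 ± 0.52 (SE; limma adjusted p = 0.840), Ly96 of -0.37 ± 0.29 (limma adjusted p = 0.484) and Lbp of 0.15 ± 0.53 (limma adjusted p = 0.892). Cd14 spanned 7.07 to 10.77 in antibiotic and 7.34 to 10.26 in WT tumours, ranges far wider than the difference between the groups. Of the 15 tested members of the list of lipopolysaccharide sensors and adaptors 0 passed in limma, and 1 (6.67%) had an unadjusted p under 0.05 with the same sign in both arms, against 18.8 percent of all genes. At the smallest p stood Traf6, a ubiquitin ligase downstream of the receptor, with 0.38, close to the log2 4 limit in every tumour (limma adjusted p = 0.156), and the inhibitor Tollip with 0.31 (limma adjusted p = 0.268).

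The transcripts that NF-kappaB induces gave no called difference either. Nfkbia, its feedback inhibitor, read log2 11.20, 10.94, 10.84, 11.05 and 11.55 in mutant and 10.61, 11.03 and 11.37 in antibiotic tumours, against 10.55, 10.62 and 11.00 in WT tumours, a difference of 0.37 ± 0.12 (SE; limma adjusted p = 0.150). The difference was positive in both arms and did not pass. Of the 12 tested members of the NF-kappaB list 0 passed in limma and 2 (16.7%) had an unadjusted p under 0.05 and the same sign in both arms, near the 18.8 percent of all genes, the other being the deubiquitinase Cyld (0.63). Tnf and Il6 lay below log2 4 on every tumour array. The chemokine Ccl2 exceeded log2 4 only in antibiotic tumour 30, at 4.95, and the 3 genes were not tested. Of 12 tested cytokines, chemokines and adhesion genes 0 passed in limma and 2 (16.7%) were at that level, again near the share of all genes. They were Cxcl12 (1.54, limma adjusted p = 0.195) and Ccl9 (0.51, limma adjusted p = 0.219). Cxcl12 read 5.44 and 5.70 in WT tumours 17 and 19, against 7.26 to 9.61 in the other WT tumours, and its difference without those tumours was 0.62.

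Pdgfa was the 1 call among the 460 tested genes of the 29 lists, a share of 0.217% that is near the 0.199 percent of all genes. In its list of 16 growth factor and CCN genes the median log2 difference was -0.66, against 0.02 over all genes tested, with medians of -1.06 in the mutant and -0.14 in the antibiotic arm. Ccn1, a matricellular protein, had -2.20 in mutant and 0.60 in antibiotic tumours, a difference between the arms of -2.79 (limma adjusted p = 0.0170). Of the EGF receptor ligands, Ereg lay below log2 4 on every tumour array and was not tested. Hbegf read 7.52, 7.48, 7.23, 7.64 and 7.65 in mutant and 3.79, 7.07 and 5.42 in antibiotic tumours, against 4.40, 5.47 and 5.90 in WT tumours. All mutant tumours and antibiotic tumour 29 lay above every WT tumour, and the pooled difference of 1.47 did not pass (limma adjusted p = 0.0992). In the mutant arm alone it was 2.25 (limma adjusted p = 0.0281). Without antibiotic tumour 28 the pooled difference was 1.89 and passed (limma adjusted p = 0.00749). Without antibiotic tumour 29 the antibiotic tumours averaged 4.60, against 5.26 in WT tumours, so the arms had opposite signs and Hbegf was not called. Btc had -1.38 (limma adjusted p = 0.194). Areg was not analysed here.

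**Figure D3:**
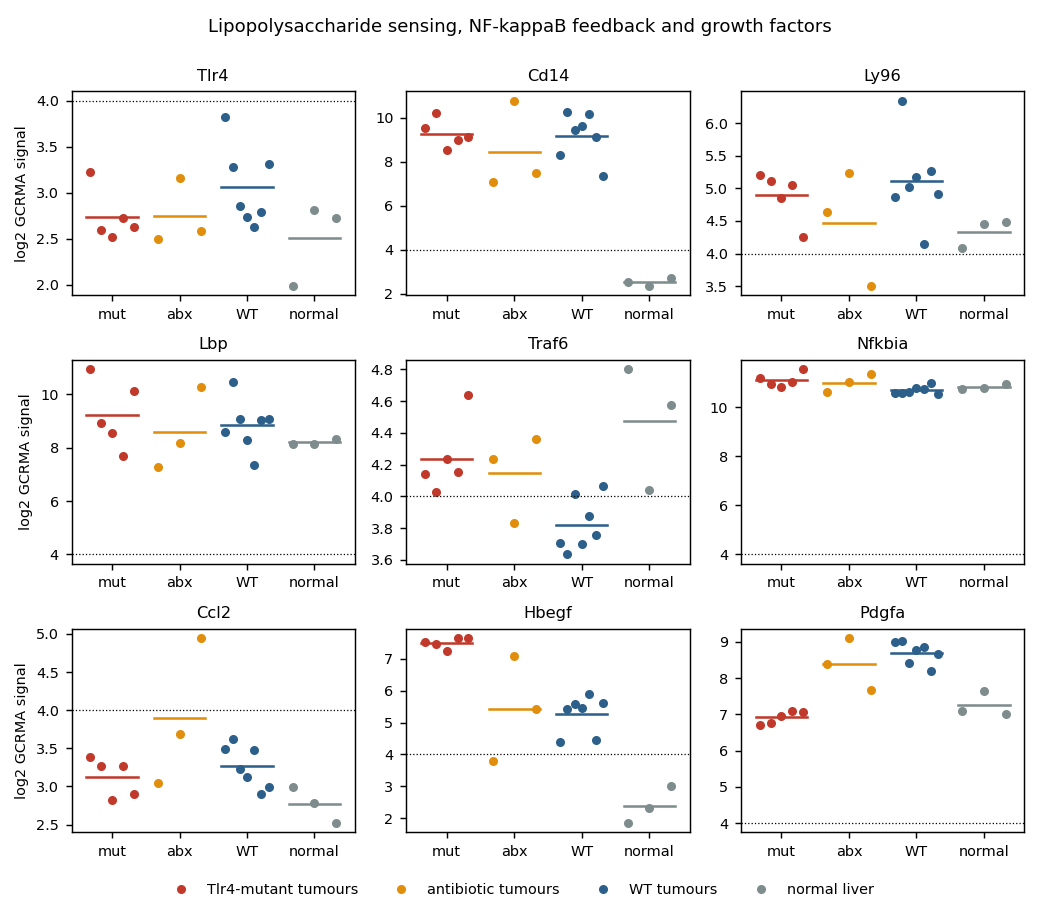
Each point is 1 array and each bar a group mean of the log2 GCRMA signal, with a separate scale per gene, groups ordered as Tlr4-mutant, antibiotic and WT tumours and normal liver, and a dotted line at log2 4. Tlr4 stays below the line on all arrays, Hbegf is between 7.23 and 7.65 in the mutant tumours and spread from 3.79 to 7.07 in the antibiotic tumours, and Pdgfa is lower only in the mutant tumours relative to the WT range, apart from antibiotic tumour 30.

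Of 18 tested cell cycle genes 11 had a negative and 7 a positive pooled difference. None of them passed the test: 0 passed in limma, 7 (38.9%) had an unadjusted p under 0.05 and a negative sign in both arms, where 8.51 percent of all genes did, and the median log2 difference was -0.49, with -0.29 in the mutant and -0.79 in the antibiotic arm. Mki67, a marker of dividing cells, read 4.37, 6.57, 7.84, 6.97 and 6.42 in mutant and 4.27, 4.78 and 4.89 in antibiotic tumours, against 5.30, 7.66 and 8.94 in WT tumours. Of the mutant tumours 4 lay inside the WT range, while mutant tumour 23 and the 3 antibiotic tumours lay below it, and the difference was -1.57 ± 0.52 (log2, SE; limma adjusted p = 0.151). Birc5, of the chromosomal passenger complex, had -1.79 (limma adjusted p = 0.128) and the cyclin Ccnb2 -1.66 (limma adjusted p = 0.134). In WT tumour 22 Mki67, Birc5 and Ccnb2 were lower than in any other WT tumour. When that tumour was left out, 115 of the 9053 genes were called, 17 of the 18 among them, and 63 of the 9053 were lower. Of the 18 cell cycle members 3 then passed as lower, namely Birc5, Ccna2 and Cdc20, the last 2 named after their values were seen. Since the tumour left out was the lowest WT tumour for Mki67, Birc5 and Ccnb2, that fit is not a separate test of these genes.

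Periportal hepatocyte genes had mostly positive differences, also without a call. These genes serve urea synthesis, gluconeogenesis and amino acid breakdown in hepatocytes around the portal vein. Of 16 tested members 15 were positive and 1 negative in both arms, 6 had an unadjusted p under 0.05, where 10.3 percent of all genes were higher at that level, and 0 passed in limma. The median log2 difference was 0.84 pooled, 0.84 in the mutant and 0.97 in the antibiotic arm. Pck1, the gluconeogenic phosphoenolpyruvate carboxykinase, read 12.69, 12.23, 12.81, 13.17 and 13.42 in mutant and 13.31, 12.60 and 13.27 in antibiotic tumours, against 8.37, 11.77 and 12.99 in WT tumours. The interrupted tumours were close together and the WT tumours widely spread, with a difference of 1.65 ± 0.52 (log2, SE; limma adjusted p = 0.142). Asl, of the urea cycle, had 0.79 (limma adjusted p = 0.183).

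Part of the positive differences was set against 2 WT tumours. Hamp, the iron hormone hepcidin, read 2.84 in WT tumour 17 and 6.60 in WT tumour 19, against 8.71 to 12.07 in the other WT tumours and 11.45 to 13.26 in interrupted tumours. Its log2 difference was 3.24 with all tumours (limma adjusted p = 0.146) and 1.53 without those 2. Pigr, which carries immunoglobulin A across epithelia, gave 1.14 with all tumours and 0.18 without those 2, and the endothelial scavenger receptor Stab2 1.01 with all tumours and 0.07 without those 2. None of these 3 passed in any of those fits.

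In the remaining lists 0 genes passed in limma. Bile acid genes had a median log2 difference of 0.57, led by the bile acid ligase Slc27a5 (0.57, limma adjusted p = 0.142) and the transporter Abcc4 (-2.09, limma adjusted p = 0.166). Clock genes had a median of 0.59, with 0.14 in the mutant and 0.94 in the antibiotic arm, but Clock itself had -1.26 and Cry1 1.13 (limma adjusted p = 0.146 and 0.165). NRF2 targets had a median of -0.30, with -0.64 in the mutant and -0.10 in the antibiotic arm. Of their 23 tested members 5 (21.7%) were lower at an unadjusted p under 0.05 with the same sign in both arms, including Ephx1 (-0.48), against 8.51 percent of all genes. Stress response genes had a median of -0.27, with 4 of 18 lower at that level (22.2%), including Trib3 (-1.2) and Atf4 (-0.36), and 1 higher. Interferon-stimulated genes had a median of -0.12, with Irf9 at -0.45 and Bst2 at -0.40, and acute phase proteins 0.21, with Hp, haptoglobin, at 0.25 and 6 of 22 tested members (27.3%) higher at that level, against 10.3 percent of all genes. Medians were -0.38 for ERK feedback genes, -0.02 for apoptosis genes, 0.16 for cholesterol synthesis, -0.08 for fatty acid metabolism, 0.31 for drug-metabolising enzymes and -0.01 for pericentral genes, the last with -0.56 in the mutant and 0.58 in the antibiotic arm. The arms also had opposite signs for cholesterol synthesis (0.39 in mutant and -0.16 in antibiotic tumours), fatty acid metabolism (0.02 and -0.24) and apoptosis genes (-0.07 and 0.07). Oncofetal markers had a median of -0.53. Afp had -1.64 pooled (limma adjusted p = 0.222) and -0.87 without antibiotic tumour 30. Ly6d, of the same list, had -2.00 pooled (limma adjusted p = 0.296). It read 3.17 in antibiotic tumour 30, against 9.06 to 13.10 in the other tumours and 2.63 to 3.15 in normal liver.

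**Figure D4:**
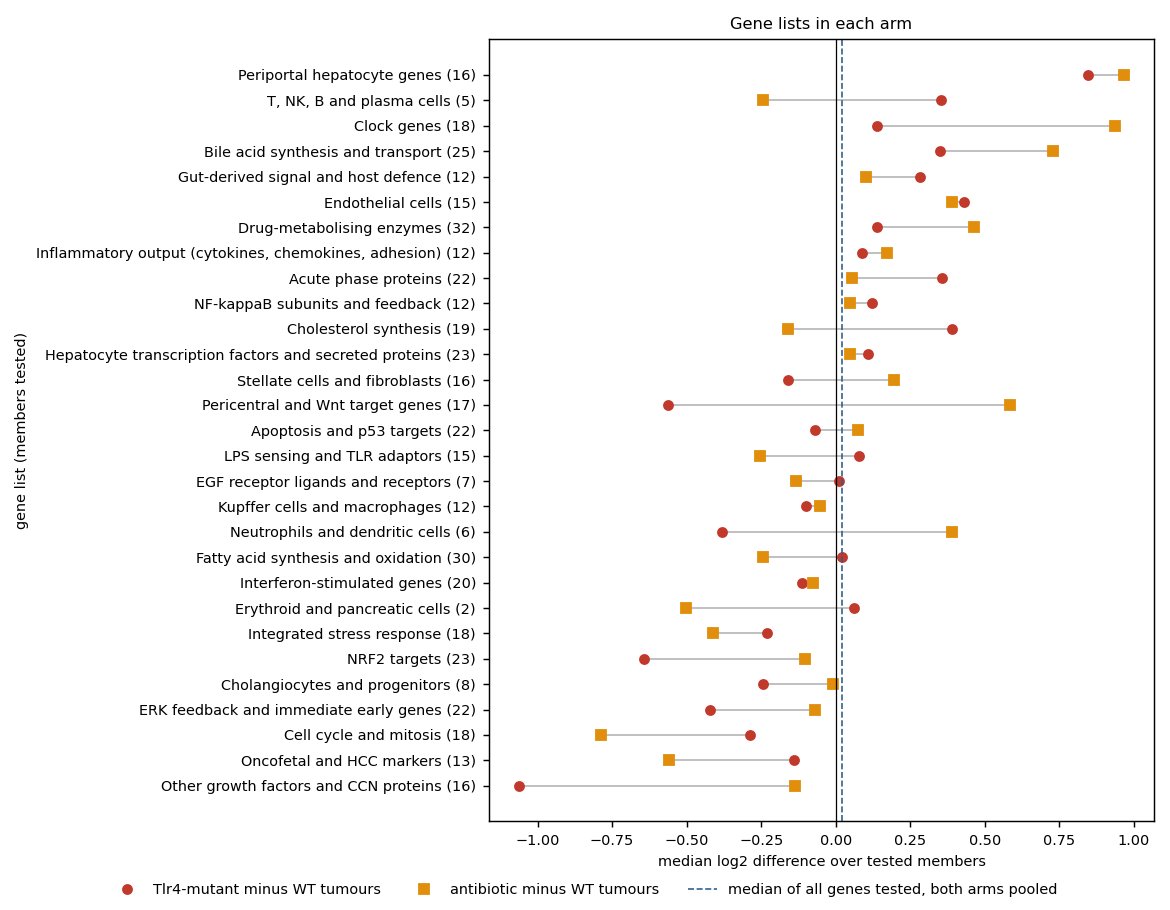
For each of the 29 gene lists, with the number of tested members in brackets, the circle gives the median log2 difference of Tlr4-mutant and the square that of antibiotic tumours from WT tumours, sorted by the pooled median. Periportal genes lie at 0.84 in mutant and 0.97 in antibiotic tumours and growth factor and CCN genes at -1.06 in mutant and -0.14 in antibiotic tumours, while the dashed line marks the median of all genes tested, 0.02.

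Markers of other cell types had overlapping ranges in the groups. The summed signal of the 21 macrophage markers on the array (log2 of the sum) ranged from 12.7 to 13.6 in interrupted and from 12.4 to 13.8 in WT tumours, with Timd4, Marco, Folr2, Ccr2, Itgam and Trem2 below log2 4 in all tumours. For 20 endothelial markers the sum ranged from 10.2 to 12.1 in interrupted and from 8.30 to 11.6 in WT tumours, with Tie1, Vwf and Ramp2 below log2 4. Of the 15 endothelial markers tested 13 had a positive and 2 a negative pooled difference, with medians of 0.43 in the mutant and 0.39 in the antibiotic arm. At an unadjusted p under 0.05 with the same sign in both arms 1 (6.67%) was higher, against 10.3 percent of all genes. For 23 stellate cell and fibroblast markers it ranged from 12.0 to 13.3 in interrupted and from 12.4 to 13.2 in WT tumours, with Col1a1 and Des among 6 below log2 4. Of 19 lymphocyte and plasma cell markers 14 lay below log2 4 in all tumours, Cd3e, Cd4, Cd8a and Cd79a among them, and the sum ranged from 11.7 to 12.4 in interrupted and from 11.4 to 12.1 in WT tumours. The erythroid and pancreatic sum ranged from 7.92 to 11.0 in interrupted and from 10.1 to 11.1 in WT tumours, with 9 of 11 markers below log2 4 in all tumours. The neutrophil and dendritic cell sum ranged from 8.505 to 11.1 in interrupted and from 8.52 to 10.9 in WT tumours, the cholangiocyte sum from 13.5 to 14.5 in interrupted and from 13.3 to 14.9 in WT tumours, and that of the 24 hepatocyte markers from 17.6 to 17.8 in interrupted and from 17.4 to 17.6 in WT tumours. In these lists 0 of the tested members passed in limma.

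The number of called genes changed when single tumours were left out. It was 115 without WT tumour 22 and 57 without antibiotic tumour 29, each with 17 of the 18 genes. It was 8 without WT tumour 19, 9 without antibiotic tumour 30, 10 without WT tumour 16 or 20 or mutant tumour 26 or 27, and 11 without mutant tumour 23. Ranbp9, Kdm5b, Slc12a4, Cystm1, Eif2s3y and Vps41 were called in all 15 of these fits. Pdgfa was called in 14 and Ppp1r21 in 11, their antibiotic difference having the opposite sign in the other fits although the pooled p passed. Fancl was called in 9. When WT tumours 17 and 19 were left out together, Ranbp9, Kdm5b and Pdgfa lost the call.

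**Figure D5:**
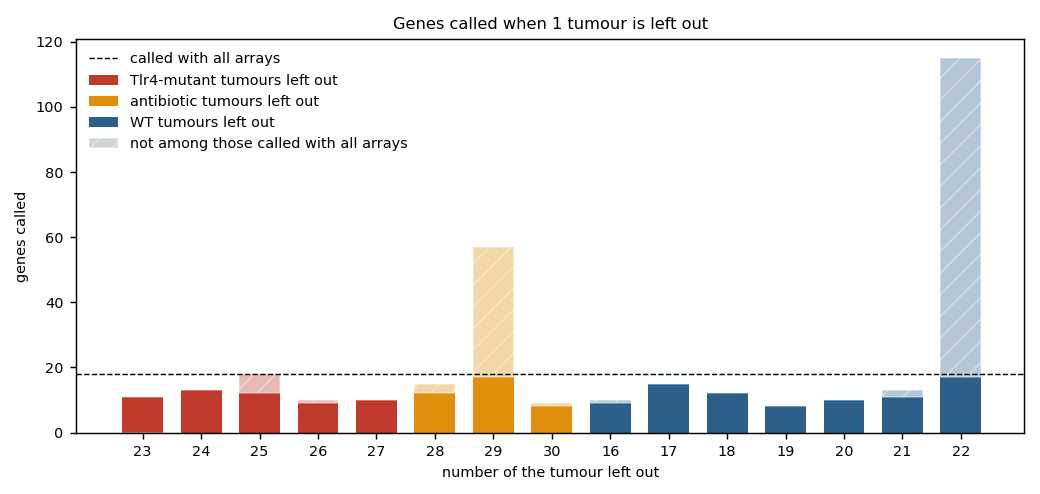
Bars count the genes called when the tumour on the horizontal axis was left out, mutant tumours 23 to 27 first, then antibiotic 28 to 30 and WT 16 to 22, with the solid part shared with the 18 genes called on all arrays (dashed line) and the hatched part not. The 2 tall bars are WT tumour 22, at 115, and antibiotic tumour 29, at 57.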

How the data were processed

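The 18 arrays were Affymetrix mouse expression arrays. The deposited log2 values are GCRMA signals per probe set, which the submitters' processing notes name without a version. Of 45101 probe sets, 34958 listed 1 gene symbol and 932 several. Probe sets above log2 4 on at least 3 arrays were kept, and the kept probe set of highest mean stood for a gene, which gave 9053 genes. Where all arrays of a group lay below log2 4, a fold is given as a bound, and a fitted difference printed for such a group is not a size.

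The 4 group means were estimated over the 18 arrays by limma (version 3.58.1, under R 4.3.3), with moderated variances. The pooled contrast weighted the arms 5 to 3. Genes were called at a Benjamini-Hochberg adjusted p under 0.05 with the same sign in both arms. Each gene's larger p of the 2 arms was adjusted separately. All tests were two-sided, and the control differences used exact permutation tests over 6435 splits. The procedure was tested on simulated data.

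The compared groups and the 29 gene lists (667 genes, 460 tested) were chosen with earlier results of these data known. Named were the called genes (at most 15 per direction), filled to 10 per direction by smallest p, 2 members per list, 13 genes of the axis and of HCC, and the 5 largest differences between the arms; any other named gene was chosen after its values were seen. Alternatives were other filters, probe set rules, scalings, variances, weights, thresholds and subsets of arrays. Arrays have no read depth. Signal over background and the number of arrays limit the precision. No scan date or batch was given. Promoter windows are from RefSeq (GRCm38.p6), found for 16 of the 18 called genes. Figures were drawn with python and matplotlib.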

Additional observations from a re-analysis of the deposited data

Results flagged for a closer look

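For 12 named genes the mutant and antibiotic tumours differed from each other. The log2 differences, mutant minus antibiotic, were 3.07 for Slc12a4 (limma adjusted p = 0.000117), 1.98 for Cystm1 (limma adjusted p = 1.05e-05), 1.96 for Ppp1r21, 0.81 for Eif2s3y, -1.47 for Pdgfa, -1.34 for Fancl and -0.73 for Vps41. Among genes outside the 18 they were -2.79 for Ccn1, -3.53 for Sult1e1, an oestrogen sulfotransferase (limma adjusted p = 0.000251), 3.15 for Nme7, -3.01 for Rbks (limma adjusted p = 1.75e-06) and -2.86 for Copz2. Sizes for 3 of these are bounds, since a group lay below log2 4 on every array. Slc12a4 was at least 3.24-fold higher in mutant than in antibiotic tumours, Sult1e1 at least 4.47-fold lower and Rbks at least 3.69-fold lower. The adjusted p of the 12 did not exceed 0.0310.

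In 12 of 194 groups of 5 or 7 arrays, 1 sample stood far from the others. Chance marks about 1 in 20 groups. The log2 values were 6.58 for Atf3, 11.6 for Ebp, 12.6 for Proc and 6.68 for Cpsf2 in mutant tumour 27, and 6.76 for Eng in mutant tumour 26. Among WT tumours they were 9.21 for Ccl9, 13.3 for Hp, 10.7 for Ebp and 11.7 for Sult1a1 in tumour 19, 9.20 for Fancl in tumour 18, 9.95 for Pmvk in tumour 20 and 8.10 for Cpsf2 in tumour 16. Mutant tumour 27 also had the highest Gapdh 3' minus 5' value of the interrupted tumours, 1.02, against 0.26 to 0.71 in the other 7, and whether the values of that tumour follow from it was not tested.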

How the results depend on the processing

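Called genes numbered 18 with all arrays, 8 higher and 10 lower. Interrupted tumours as 1 group gave 0, 0 and 0, and the 15 tumours alone 8, 4 and 4. Averaging a gene's probe sets gave 45 (33 lower) and centred arrays 33 (22 higher). Quantile normalization gave 16 higher and array weights 5 higher. An adjusted p under 0.01 left 5 (4 and 1), and a difference of at least 1 on the log2 scale 6 (3 and 3). Without WT tumours 17 and 19, 9 were called (5 and 4). Mutant against WT tumours gave 24 genes, but 38 with array weights, 14 at 0.01 and 15 at 1 log2. Antibiotic against WT tumours gave 8, but 1 with the 15 tumours alone, 17 with averaged probe sets, 5 with centred arrays, 1 with array weights, 1 at 0.01, 4 at 1 log2 and 4 without WT tumours 17 and 19. Mutant against antibiotic tumours gave 21, and 13 at 0.01. Leaving out each tumour in turn gave 8 to 115 called genes, 3 to 52 higher, 5 to 63 lower, 16 to 34 in the mutant arm, 1 to 33 in the antibiotic arm, 13 to 77 between the arms and 0 to 0 with both arms required. The remaining settings stayed within 1.5 times. The causes were not tested. Signs reversed for 5 named genes that never passed. Jchain gave -0.11, Ighm -0.31 and Cd14 0.081 without WT tumours 17 and 19. With array weights Ighm gave -0.33, Alas2 -0.033 and Lbp -0.20. Leaving out each tumour in turn gave -0.12 to 0.31 for Alas2, -0.53 to 0.049 for Cd14 and -0.12 to 0.42 for Lbp. No paired analysis was possible because the groups share no replicate numbers.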
